A study of Mus musculus with 24 samples.

Results

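The genes described here are 10 cyclins, kinases and partners of the meiotic divisions. They are the cyclins Ccna1, Ccnb1 and Ccnb2, the cyclin-dependent kinase Cdk1 with its activating phosphatase Cdc25c, the division kinases Plk1, Aurka, Aurkb and Aurkc, and the translation factor gene Eif4g3. They were chosen by name, as the identifiers of the count table that carry these symbols in GENCODE release 21 for mouse (M21), and make up 10 of the 55536 genes in the table. All 10 passed the filter on low counts (10 or more counts in 3 or more libraries), among 19450 genes tested in spermatocytes, 19310 in round spermatids and 20404 over both cell fractions.

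A spermatocyte leaves prophase I when cyclin-dependent kinase 1, bound to a cyclin, becomes active. Inhibitory phosphates on the kinase are removed by CDC25 phosphatases, and Polo-like kinase 1 and the Aurora kinases then carry the cell through spindle assembly, chromosome alignment and division. In the testis this machinery has germ cell versions: cyclin A1 is needed by male germ cells to enter the division, Aurora kinase C is found mostly in meiotic cells, and eIF4G3, a scaffold of the cap-binding translation complex, is needed for spermatocytes to exit prophase.

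Messenger RNA was sequenced from pachytene/diplotene spermatocytes and from round spermatids, the haploid cells made by the meiotic divisions, both enriched from testes of male C57BL/6J mice of 10 to 15 weeks by sedimentation through an albumin gradient. The mice were Ago413+/+ (wild-type), Ago413+/- (heterozygous) or Ago413-/- (null) for a deletion on chromosome 4 that takes out all of Ago1 and part of both Ago3 and Ago4, so that the question asked of these genes is whether the RNA level of the division machinery differs when these Argonaute proteins are lost. The deletion was made in embryonic stem cells of another strain and is constitutive, having been excised with a Sox2-cre deleter before backcrossing, so every cell of a null animal, somatic cells included, carries it, and each library came from testes of 2 to 5 mice pooled and from fractions judged over 70% pure by microscopy. Spermatocytes were represented by 4 libraries of the wild-type and by 3 of each mutant genotype, round spermatids by 3 of the wild-type and by 4 of each mutant genotype.

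A library held from 12825105 to 29749058 counts in spermatocytes and from 15446660 to 27433487 in round spermatids. Another 3 libraries that their labels call outliers, wild-type spermatocyte replicate 3, heterozygous spermatocyte replicate 4 and wild-type round spermatid replicate 3, were left out of the groups. Ago1 had 0 counts in all null libraries of both fractions and 41 to 122 counts in the wild-type libraries, as the labels state. Reads of Ago3 and Ago4, which the deletion removes in part, remained in null spermatocytes, at 38.2 to 86.4 CPM for Ago3 against 4.92 to 11.3 CPM in the wild-type, and at 9.50 to 16.1 CPM for Ago4 against 16.8 to 46.8 CPM. The 6 prophase markers (Sycp1, Sycp3, Piwil1, Psma8, Pou5f2 and Meiob) summed to 491.2 to 1317 CPM (counts scaled to a common library size, here over both fractions) in wild-type spermatocytes and to 245.6 to 377 CPM in wild-type round spermatids. The 7 round spermatid markers summed to 1741 to 3976 CPM and to 9191 to 12500 CPM in the same groups, so each fraction held transcripts of the other. Markers of macrophages stayed at or below 9.45 CPM in spermatocytes, those of Leydig cells at or below 22.8 CPM and those of myoid cells at or below 4.34 CPM, whereas the 5 Sertoli markers reached 177.2 CPM, and hemoglobin genes of erythrocytes stayed at or below 0.223 CPM.

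All members are protein-coding genes, and those other than Cdc25c are given here with their GENCODE M21 coordinates on GRCm38/mm10. Ccna1 (ENSMUSG00000027793) lies at chr3:55045469-55055501, Ccnb1 (ENSMUSG00000041431) at chr13:100778650-100786570 and Ccnb2 (ENSMUSG00000032218) at chr9:70407692-70421547, all on the minus strand. Cdk1 (ENSMUSG00000019942) lies at chr10:69335146-69352938 on the minus strand. Plk1 (ENSMUSG00000030867) lies at chr7:122159439-122169873 on the plus strand and Aurka (ENSMUSG00000027496) at chr2:172356190-172370535 on the minus strand. Aurkb (ENSMUSG00000020897) lies at chr11:69045647-69051664 and Aurkc (ENSMUSG00000070837) at chr7:6995300-7003091, both on the plus strand. Eif4g3 (ENSMUSG00000028760), at chr4:137993022-138208508 on the plus strand, is on the chromosome of the deletion, 11.5 Mb from the Argonaute genes.

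The promoters of 4 members are shown because they pair the genes lowest in null spermatocytes (Cdk1 and Aurka) with members that moved little there (Ccnb2 and Plk1, log2 fold changes of -0.08 and -0.11). Ccnb1 moved less (-0.06) but is not among those shown. Each run covers positions -150 to -1 before the RefSeq start site (GRCm38.p6), read on the strand of the gene. Capitals mark CHR elements (TTTGAA or TTCGAA), which repress or time transcription in the cell cycle, and CCAAT boxes (CCAAT, or ATTGG where the box lies on the other strand). The runs come from chr10:69352913-69353062 for Cdk1, chr2:172370571-172370720 for Aurka and chr9:70421555-70421704 for Ccnb2, all minus strand, and from chr7:122159285-122159434, plus strand, for Plk1. The last 26 bases of the Cdk1 run lie inside the gene as GENCODE M21 draws it.
Cdk1: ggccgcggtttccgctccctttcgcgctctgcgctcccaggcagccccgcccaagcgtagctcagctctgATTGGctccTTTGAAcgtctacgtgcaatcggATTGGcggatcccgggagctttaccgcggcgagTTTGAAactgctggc
Aurka: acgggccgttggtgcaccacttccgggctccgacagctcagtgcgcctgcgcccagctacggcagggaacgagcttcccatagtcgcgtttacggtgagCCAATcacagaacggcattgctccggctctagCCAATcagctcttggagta
Ccnb2: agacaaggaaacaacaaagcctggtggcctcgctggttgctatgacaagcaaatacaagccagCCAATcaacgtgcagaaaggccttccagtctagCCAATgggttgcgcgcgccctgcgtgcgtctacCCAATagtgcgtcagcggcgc
Plk1: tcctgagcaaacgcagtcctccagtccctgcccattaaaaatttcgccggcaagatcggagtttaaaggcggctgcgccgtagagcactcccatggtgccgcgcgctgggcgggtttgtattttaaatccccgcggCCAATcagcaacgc
The Cdk1 run held 2 CHR elements, starting at -71 and -15, and 2 CCAAT boxes. The other 3 runs showed no CHR element but had such elements outside the stretch printed, at position 33 after the start site in Aurka, at -167 and 5 in Ccnb2 and at 31 in Plk1. These runs held 2 CCAAT boxes in Aurka, 3 in Ccnb2 and 1 in Plk1, and no match overlapped another. Both strands were searched. Of 32851 RefSeq promoter windows, 9.7% held a CHR element and 24.5% a CCAAT box between -150 and -1, and over the whole window searched, from 250 bases before to 50 after the start site, 19.2% and 37.4% did. RefSeq promoter windows were read for 8 of the 10 members, Aurkb and Cdc25c being named only. Of these 8, 6 (Ccna1, Ccnb1, Ccnb2, Cdk1, Aurka and Plk1) held a CCAAT box between -150 and -1. A CHR element was found in the whole window of only the 4 members shown, and in none of Ccna1, Ccnb1, Aurkc and Eif4g3.

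Levels can be compared between genes only per length, and were therefore also divided by the exon length in kb. In wild-type spermatocytes the level per kb was highest for Ccna1 (142.2 ± 16.1 CPM per kb, SD, n = 4), Ccnb2 (133.4 ± 9.66) and Aurka (116.5 ± 14.8). Neither Ccna1 and Ccnb2 nor Ccnb2 and Aurka were apart, since their libraries overlapped. Plk1 followed at 70.6 ± 7.48 CPM per kb, Eif4g3 at 44.9 ± 3.97, Ccnb1 at 30.3 ± 5.04 and Aurkc at 21.6 ± 1.53, each without overlap with its neighbours in the order. Cdk1 (9.63 ± 1.80 CPM per kb), Aurkb (6.92 ± 0.754) and Cdc25c (5.28 ± 1.30) were lowest, and neighbours among these overlapped. The cyclins were thus present at levels per kb well above that of the kinase they bind, and the order of the first 7 genes was the same in wild-type round spermatids, where Cdc25c stood before Cdk1 and Aurkb.

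**Figure D1:**
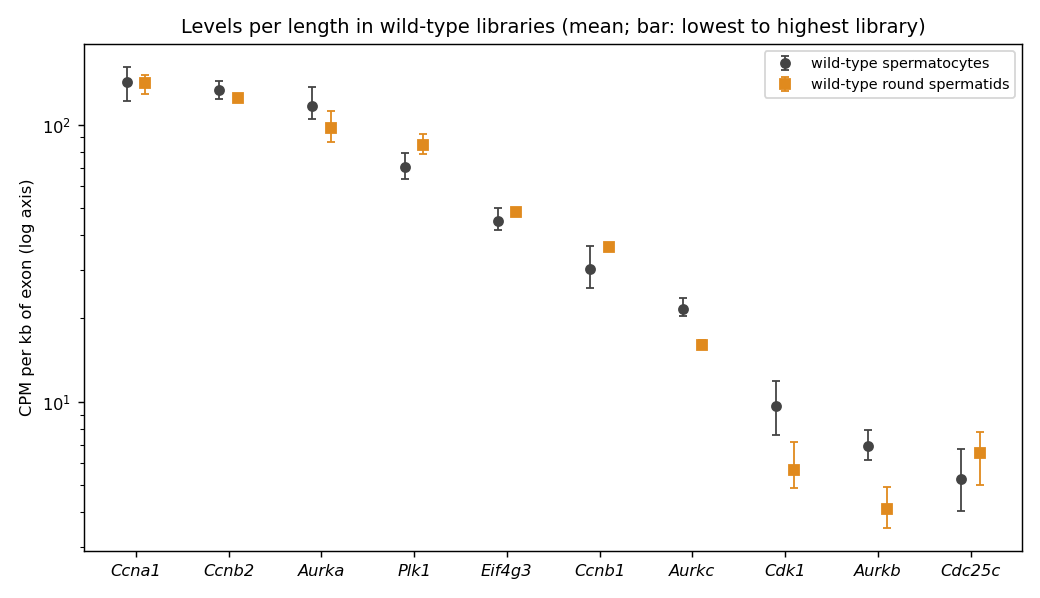
Level of each member per kb of exon in wild-type libraries (log axis, CPM per kb), with genes ordered by their mean in spermatocytes. Circles are means of 4 spermatocyte libraries, squares means of 3 round spermatid libraries, and bars run from the lowest to the highest library. The levels span from 142.2 CPM per kb for Ccna1 to 5.28 CPM per kb for Cdc25c in spermatocytes, and the squares of Cdk1 and Aurkb lie below their circles without overlap.

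The loss of the Argonaute genes was examined first in spermatocytes, null against wild-type. Cdk1, Aurka and Aurkc were lower in every null library than in every wild-type library, and Cdc25c was higher, while the cyclins, Plk1, Aurkb and Eif4g3 overlapped between the genotypes. None of the 10 members passed the edgeR quasi-likelihood test (Benjamini-Hochberg adjusted p under 0.05, with a log2 fold change beyond 0.5 in either direction), where 0.0411% of all tested genes did. At an unadjusted p under 0.05, 3 members passed against 30.4% of all genes, and DESeq2 called 3 members (Cdk1 and Aurka lower, Cdc25c higher) against 15.2% of all genes. Groups without overlap, here and in the other comparisons counted without the libraries labelled outliers, were found for 4 members, against 28% of all genes. The log2 fold change was below 0 for 8 of 10 members with a median of -0.20, beside a median of -0.03 over all genes, of which 51.7% were below 0. The edgeR result depended on single libraries: without wild-type replicate 5, or without heterozygous replicate 3, which shares the estimate of spread, Cdk1, Aurka and Cdc25c were called. In these fits the number of genes called over the whole table went from 8 to 4526 and 3740, against which the 3 members have to be read. The values for Cdk1 were then -0.94 (adjusted p = 0.00908) and -0.87 (adjusted p = 0.0252).

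In round spermatids, Ccna1, Ccnb1, Cdk1, Plk1, Aurka and Aurkc were lower in every null library than in every wild-type library, and no member was higher without overlap. These 6 members stand against 19.4% of all genes without overlap. The edgeR test called 0 of 10 members (0.0518% of all genes), 6 members had an unadjusted p under 0.05 (19.3% of all genes), and DESeq2 called 3, namely Ccna1, Cdk1 and Aurka, all lower (3.62% of all genes). The log2 fold change was below 0 for 8 of 10 members, and its median was -0.34 beside 0.03 over all genes.

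Heterozygous mice, which keep an intact copy of each gene, were compared with the same wild-type libraries, so these comparisons are not independent of the previous ones. In spermatocytes Cdk1, Plk1, Aurka, Aurkb and Aurkc were lower in heterozygous libraries without overlap (5 members, against 17.6% of all genes). The edgeR test called none of them (0.0257% of all genes), 4 members had an unadjusted p under 0.05 (24.6% of all genes) and DESeq2 called Cdk1 and Aurka (6.16% of all genes). Without wild-type replicate 5 edgeR also called these, Cdk1 at -1.06 (adjusted p = 0.0166) and Aurka at -0.67 (adjusted p = 0.0320), in a fit that called 2966 genes in all against 5 with every library. In heterozygous round spermatids 4 members were lower without overlap (Ccna1, Ccnb1, Aurka and Aurkc, against 9.81% of all genes). Neither edgeR (0.0207% of all genes) nor DESeq2 (0.0414%) called a member, and 5 had an unadjusted p under 0.05 (8.88% of all genes).

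Between null and heterozygous libraries no member was called by either tool. In spermatocytes edgeR called 0 members (0.00514% of all genes), DESeq2 called 0 (0.0206%) and 0 had an unadjusted p under 0.05 (3.74%). In round spermatids the same counts were 0 (0.00518%), 0 (0.104%) and 0 (7.67%). The difference of Cdk1 between null and heterozygous spermatocytes was 0.12 (SE 0.22) on the log2 scale, and that of Aurka -0.0014 (SE 0.18).

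**Figure D2:**
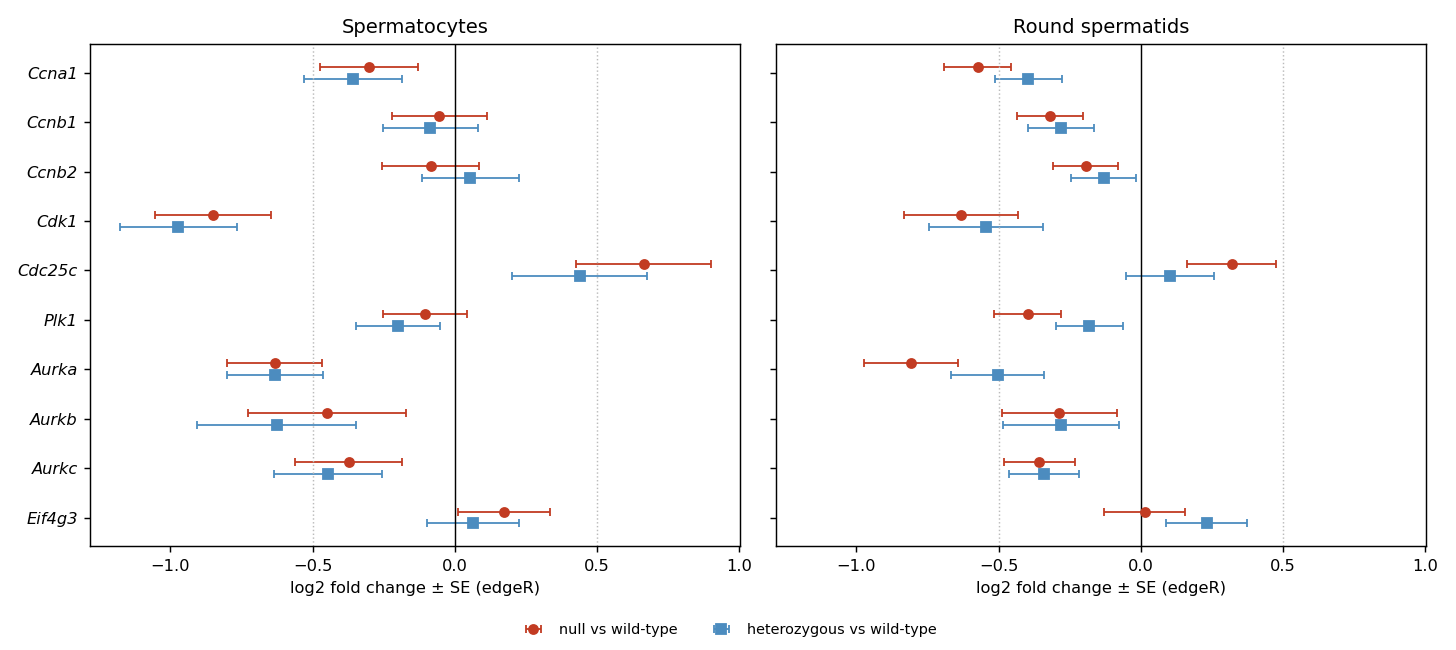
Log2 fold change of each member against wild-type in spermatocytes (left) and round spermatids (right), from edgeR. Circles are null and squares heterozygous libraries, bars are standard errors, and dotted lines mark a log2 fold change of 0.5 in either direction. Cdk1 and Aurka lie farthest to the left in spermatocytes, at -0.85 and -0.63 in the null, while Cdc25c lies to the right at 0.66. No point passed the adjusted test.

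Among the cyclins, Ccna1, the germ cell cyclin A, was measured in wild-type spermatocytes at 257.9, 296.3, 224.3 and 265.3 CPM. Null spermatocytes had 176.3, 234.7 and 217.4 CPM and heterozygous ones 176.5, 171.5 and 244.8 CPM. A single null and a single heterozygous library reached into the range of the wild-type, and the log2 fold change of the null was -0.30 (SE 0.17, edgeR adjusted p = 0.246). In round spermatids the wild-type was apart from both mutants, which overlapped each other. Wild-type libraries had 278.4, 237.3 and 262.6 CPM. The heterozygous libraries had 189.1, 207.7, 215.1 and 170.2 CPM and the null ones 193.2, 178.8, 174.7 and 164.8 CPM. All of them lay below the lowest wild-type library, and the null differed by -0.57 (SE 0.12, edgeR adjusted p = 0.0707, DESeq2 adjusted p = 0.00059) and the heterozygotes by -0.40 (SE 0.12, edgeR adjusted p = 0.551). An antisense gene, 4931419H13Rik, overlaps Ccna1, and since the strand setting of the counting is not stated, reads of both cannot be told apart with certainty.

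Ccnb1 and Ccnb2 encode the B-type cyclins, partners of CDK1 in M-phase. Ccnb1 was at 111.9, 136.2, 108.9 and 153.8 CPM in wild-type, 109.7, 105.4 and 135.1 CPM in heterozygous and 119.1, 125.0 and 120.3 CPM in null spermatocytes. These overlapped, and the log2 fold change of the null was -0.06 (SE 0.17, edgeR adjusted p = 0.840). In round spermatids it was at 151.3, 157.4 and 149.5 CPM in the wild-type and, in the null, at 140.9, 140.6, 107.6 and 112.2 CPM. The heterozygous libraries had 124.7, 122.3, 136.0 and 116.7 CPM, so that all mutant libraries lay below the wild-type ones, with -0.32 (SE 0.12, edgeR adjusted p = 0.162) in the null. The wild-type round spermatid library called an outlier by its label had 138.4 CPM (outlier libraries are scaled over all libraries), which is below 2 null libraries, so the separation from the null holds only without it. Of the 31-base words in its transcripts, 27.7% also occur in other genes, most of them in the pseudogene Ccnb1-ps, so part of its reads could not be placed at a single site.

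Ccnb2 overlapped between all genotypes in spermatocytes. Its levels were 189.4 to 219.9 CPM in 4 wild-type, 168.3 to 269.6 CPM in 3 heterozygous and 175.9 to 200.0 CPM in 3 null libraries (log2 fold change of the null -0.08, SE 0.17). Wild-type round spermatids had 190.5, 191.0 and 193.7 CPM, and null ones 195.2, 181.8, 156.1 and 152.9 CPM. A null library lay above all wild-type ones and the others below, and the difference of -0.19 (SE 0.11, edgeR adjusted p = 0.363) was not called.

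Cdk1, the kinase that the cyclins activate, differed most among the members in spermatocytes. It was at 48.97, 58.78, 44.75 and 37.47 CPM in wild-type libraries. Heterozygous libraries had 20.27, 25.32 and 24.69 CPM and null ones 21.37, 31.68 and 25.02 CPM. The highest mutant library lay below the lowest wild-type library, at mean levels of 47.5 ± 8.90 CPM in the wild-type (SD, n = 4), 23.4 ± 2.75 in the heterozygotes (n = 3) and 26.0 ± 5.23 in the null (n = 3). On the log2 scale the difference was -0.85 (SE 0.20, edgeR adjusted p = 0.0599, DESeq2 adjusted p = 0.00602) in the null and -0.97 (SE 0.21, edgeR adjusted p = 0.124, DESeq2 adjusted p = 0.00519) in the heterozygotes. The wild-type spermatocyte library that its label calls an outlier held 23.35 CPM, which is inside the range of the mutants, and with the outlier libraries added back the null differed by -0.64 (edgeR adjusted p = 0.247).

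In round spermatids Cdk1 was at 35.21, 24.14 and 24.87 CPM in the wild-type. The null libraries had 20.11, 14.63, 20.44 and 18.62 CPM and the heterozygous ones 15.28, 24.57, 20.15 and 15.92 CPM. The null lay below the wild-type without overlap, by -0.63 (SE 0.20, edgeR adjusted p = 0.123, DESeq2 adjusted p = 0.0479), whereas a heterozygous library reached between the lower wild-type libraries.

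Cdc25c (ENSMUSG00000044201), a phosphatase that switches CDK1 on, was the only member higher in null spermatocytes without overlap. Wild-type libraries were at 21.25, 29.61, 19.93 and 33.15 CPM, heterozygous ones at 29.57, 28.06 and 45.11 CPM and null ones at 46.29, 35.12 and 40.63 CPM. The lowest null library lay just above the highest wild-type library, and the null stood 0.66 log2 units higher (SE 0.24, edgeR adjusted p = 0.0920, DESeq2 adjusted p = 0.0480). In round spermatids the null libraries (44.79, 43.74, 35.40 and 39.45 CPM) overlapped those of the wild-type (24.66, 33.19 and 38.30 CPM), with 0.32 (SE 0.16, edgeR adjusted p = 0.276). The antisense gene Gm3550 overlaps Cdc25c. The ratio of the Cdc25c level to the Cdk1 level (CPM) within a library was 0.434 to 0.885 in wild-type, 1.11 to 1.83 in heterozygous and 1.11 to 2.17 in null spermatocytes, without overlap between wild-type and mutants. This separation follows from the levels of both genes given above and is no separate result. The wild-type spermatocyte library called an outlier by its label does not keep this separation, with 27.29 CPM for Cdc25c and 23.35 CPM for Cdk1. In round spermatids the same ratio was 0.700 to 1.54 in the wild-type, 1.17 to 2.51 in the heterozygotes and 1.73 to 2.99 in the null. The null lay wholly above the wild-type, and the heterozygotes overlapped both. The ratio of Cdk1 to Ccnb1 was 0.244 to 0.438 in wild-type spermatocytes, 0.183 to 0.240 in heterozygous and 0.179 to 0.253 in null ones, where the null range reached into that of the wild-type.

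**Figure D3:**
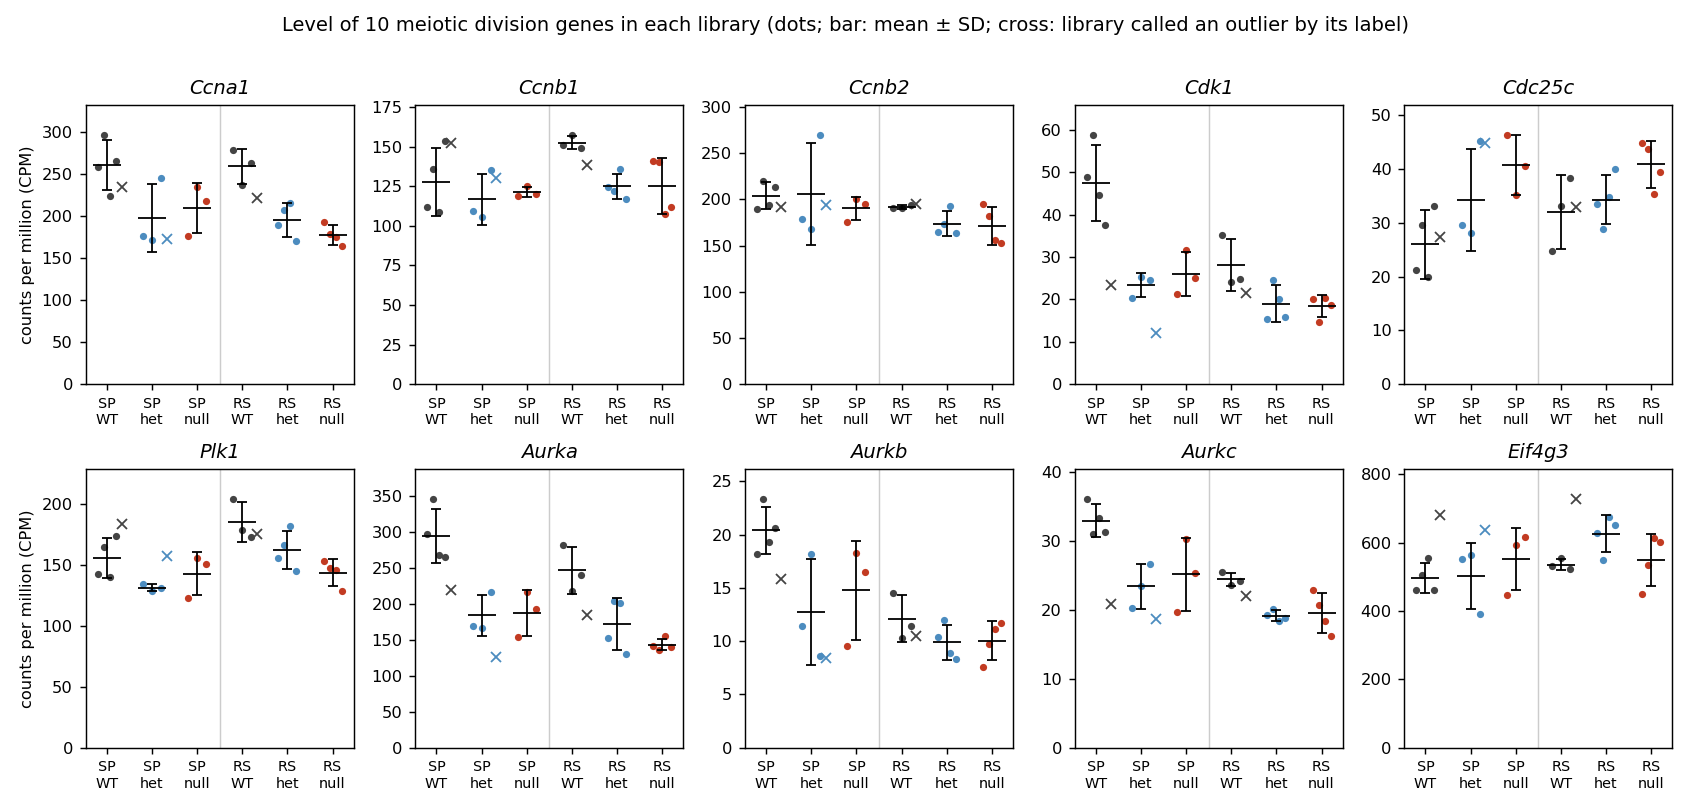
Level of each member in every library in CPM (linear axes from 0), for wild-type (WT), heterozygous (het) and null libraries of spermatocytes (SP) and round spermatids (RS). Dots are libraries, bars are mean ± SD, and crosses are the 3 libraries that their labels call outliers, which were scaled over all libraries and are not in the means. Cdk1 and Aurka dots of wild-type spermatocytes sit above all mutant dots, and the crosses of wild-type spermatocytes for these genes, at 23.35 and 219.6 CPM, sit lower than the wild-type dots.

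Plk1, the Polo-like kinase that acts at centrosomes and kinetochores, overlapped between null and wild-type spermatocytes. Its levels were 142.8, 164.9, 140.1 and 173.5 CPM in the wild-type and 122.7, 155.3 and 150.3 CPM in the null (log2 fold change -0.11, SE 0.15, edgeR adjusted p = 0.641). Heterozygous spermatocytes, at 134.1, 128.4 and 130.6 CPM, lay just below the wild-type, but the heterozygous library labelled an outlier had 157.3 CPM. Null round spermatids, at 153.3, 147.5, 145.6 and 128.2 CPM, all lay below the wild-type ones at 204.2, 178.4 and 173.1 CPM. The difference of -0.40 (SE 0.12) had an adjusted p of 0.108 in edgeR and of 0.0248 in DESeq2, where its fold change stayed under the threshold. The heterozygous libraries spread from 144.8 to 181.5 CPM and overlapped both. A pseudogene, Plk-ps1, shares 14.8% of its 31-base words, and the antisense gene Gm44985 overlaps Plk1.

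Aurka, whose kinase matures centrosomes and builds the spindle, was the Aurora kinase gene with the highest level per kb and stood apart in both fractions. Wild-type spermatocytes had 297.7, 346.8, 268.7 and 266.2 CPM. Heterozygous ones had 169.7, 166.4 and 217.0 CPM and null ones 153.9, 217.0 and 192.8 CPM. Every mutant library lay below every wild-type one, with -0.63 (SE 0.17, edgeR adjusted p = 0.0608, DESeq2 adjusted p = 0.0213) in the null and -0.63 (SE 0.17, edgeR adjusted p = 0.124, DESeq2 adjusted p = 0.0328) in the heterozygotes. Leaving out wild-type replicate 5 brought the null value to -0.67 (edgeR adjusted p = 0.0214), and adding back the outlier libraries brought it to -0.51 (edgeR adjusted p = 0.199).

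In round spermatids the wild-type was again above both mutants for Aurka. The wild-type was at 282.6, 218.7 and 240.1 CPM, the heterozygotes at 152.6, 204.7, 200.9 and 130.6 CPM, and the null at 141.9, 136.7, 155.4 and 140.9 CPM. The null libraries lay closely together at 143.7 ± 8.12 CPM (SD, n = 4), against 247.1 ± 32.6 CPM (n = 3) in the wild-type. The wild-type library labelled an outlier had 184.9 CPM, above the null but inside the heterozygous range, so the wild-type and the heterozygotes were apart only without it. This was the largest difference of a member in round spermatids, at -0.81 (SE 0.16, edgeR adjusted p = 0.0707, DESeq2 adjusted p = 0.00148).

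Aurkb and Aurkc encode the Aurora kinases of the chromosomal passenger complex, which corrects the attachment of chromosomes to the spindle. Aurkb was at 18.22, 23.36, 19.30 and 20.63 CPM in wild-type, 11.43, 18.21 and 8.59 CPM in heterozygous and 9.55, 18.29 and 16.44 CPM in null spermatocytes. A null library lay inside the range of the wild-type, the highest heterozygous one just under it, and the log2 fold changes were -0.45 (SE 0.28, edgeR adjusted p = 0.283) and -0.63 (SE 0.28, edgeR adjusted p = 0.191). The wild-type spermatocyte library labelled an outlier had 15.86 CPM, inside the heterozygous range. In round spermatids, at 7.56 to 11.7 CPM in the null and 10.3 to 14.6 CPM in the wild-type, the genotypes overlapped (-0.29, SE 0.20).

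Aurkc was at 36.10, 31.03, 33.26 and 31.33 CPM in wild-type spermatocytes, against 20.19, 23.40 and 26.66 CPM in heterozygous and 19.70, 30.27 and 25.40 CPM in null ones. All mutant libraries lay below, by -0.37 (SE 0.19, edgeR adjusted p = 0.194) in the null. Wild-type round spermatids had 25.45, 23.55 and 24.18 CPM and the null 22.83, 20.76, 18.35 and 16.13 CPM (-0.36, SE 0.12, edgeR adjusted p = 0.148). These separations hold only without the wild-type libraries labelled outliers, which had 20.82 CPM in spermatocytes and 21.96 CPM in round spermatids, both inside the range of the null. The Aurkc values are uncertain, because 67.1% of the 31-base words in its transcripts recur in 10 other genes, with 45.3% in Gm12463 alone, and reads that fit several places are not counted.

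Eif4g3, the translation scaffold, showed no separation between null and wild-type. It was at 461.6, 505.7, 554.4 and 463.0 CPM in wild-type, 551.5, 562.7 and 390.7 CPM in heterozygous and 447.6, 593.6 and 615.7 CPM in null spermatocytes (log2 fold change of the null 0.17, SE 0.16, edgeR adjusted p = 0.475). Wild-type round spermatids had 531.1, 554.7 and 523.0 CPM, the heterozygous ones 629.7, 549.1, 675.1 and 651.7 CPM, and the null ones 448.8, 535.7, 613.3 and 600.8 CPM. The null libraries lay on both sides of the wild-type (0.01, SE 0.14, edgeR adjusted p = 0.969), and all but 1 of the heterozygous libraries lay above it. The wild-type round spermatid library labelled an outlier had 728.9 CPM, above every heterozygous library.

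The fractions were compared within each genotype to ask how these transcripts differ between prophase cells and the products of the divisions. In wild-type libraries Cdk1 and Aurkb fell from spermatocytes to round spermatids, from 47.5 ± 8.90 to 28.1 ± 6.19 CPM and from 20.4 ± 2.22 to 12.1 ± 2.19 CPM (SD, n = 4 and 3). Their log2 fold changes were -0.76 (SE 0.20, edgeR adjusted p = 0.00872) and -0.75 (SE 0.25, edgeR adjusted p = 0.0282). These 2 of 10 members compare with 24.2% of all genes called by edgeR, and DESeq2 called the same number namely Cdk1 and Aurkb, where it called 26.7% of all genes. Aurkc was lower as well without overlap (-0.43, SE 0.16, edgeR adjusted p = 0.0442) but stayed under the fold threshold, and its wild-type spermatocyte library labelled an outlier (20.82 CPM) lay below all wild-type round spermatid ones. The same library held 23.35 CPM of Cdk1, below all wild-type round spermatid libraries of the group (24.14 CPM and above). Groups without overlap were seen for 3 members, against 33.7% of all genes.

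The cyclins, Cdc25c, Plk1, Aurka and Eif4g3 overlapped between the wild-type fractions. Ccna1 was nearly equal (-0.01, SE 0.14) and Ccnb1 (0.26, SE 0.14), Plk1 (0.25, SE 0.12), Cdc25c (0.30, SE 0.20) and Eif4g3 (0.11, SE 0.15) were above 0 without being called. The calls of Cdk1 and Aurkb depended on single libraries, while their fold changes moved less. Without wild-type round spermatid replicate 2 neither passed (-0.65, edgeR adjusted p = 0.0569 for Cdk1, and -0.64, edgeR adjusted p = 0.126 for Aurkb), and without wild-type round spermatid replicate 4 or wild-type spermatocyte replicate 2 only Cdk1 did, with Aurkb at -0.71 (edgeR adjusted p = 0.0925) and -0.68 (edgeR adjusted p = 0.0679). These fits called 3558, 3669 and 4440 of all genes. With the outlier libraries added back, edgeR called no gene at all in this comparison, and the values were -0.69 (adjusted p = 0.0717) for Cdk1 and -0.73 (adjusted p = 0.0635) for Aurkb.

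Within the mutants no member was called between the fractions. In heterozygous libraries edgeR called 0 members (8.89% of all genes) and DESeq2 0 (11.2%), and 2 members, Plk1 and Eif4g3, had an unadjusted p under 0.05 (23.6% of all genes). In null libraries edgeR called 0 (17.1% of all genes) and DESeq2 0 (19.9%), and 4 members had an unadjusted p under 0.05 (32.4% of all genes). Cdk1 differed by -0.30 (SE 0.20) in the heterozygotes and by -0.50 (SE 0.20, edgeR adjusted p = 0.0879) in the null. Aurkb differed by -0.55 (SE 0.24, edgeR adjusted p = 0.116) and Aurka by -0.39 (SE 0.16, edgeR adjusted p = 0.103) in the null. Without null spermatocyte replicate 1, Cdk1, Aurka, Aurkb and Aurkc were called, 4 of 10 members, in a fit that called 4129 of all genes.

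Whether the loss acted differently in the fractions was tested as an interaction. No member differed, with 0 calls by edgeR (0% of all genes), 0 by DESeq2 (0% of all genes) and 0 members at an unadjusted p under 0.05 (5.95% of all genes). The null effect on Ccna1 differed by -0.23 (SE 0.20, edgeR adjusted p = 0.833) and that on Cdk1 by 0.26 (SE 0.28, edgeR adjusted p = 0.863), so the separation of Ccna1 in round spermatids alone is not shown to be particular to that fraction.

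**Figure D4:**
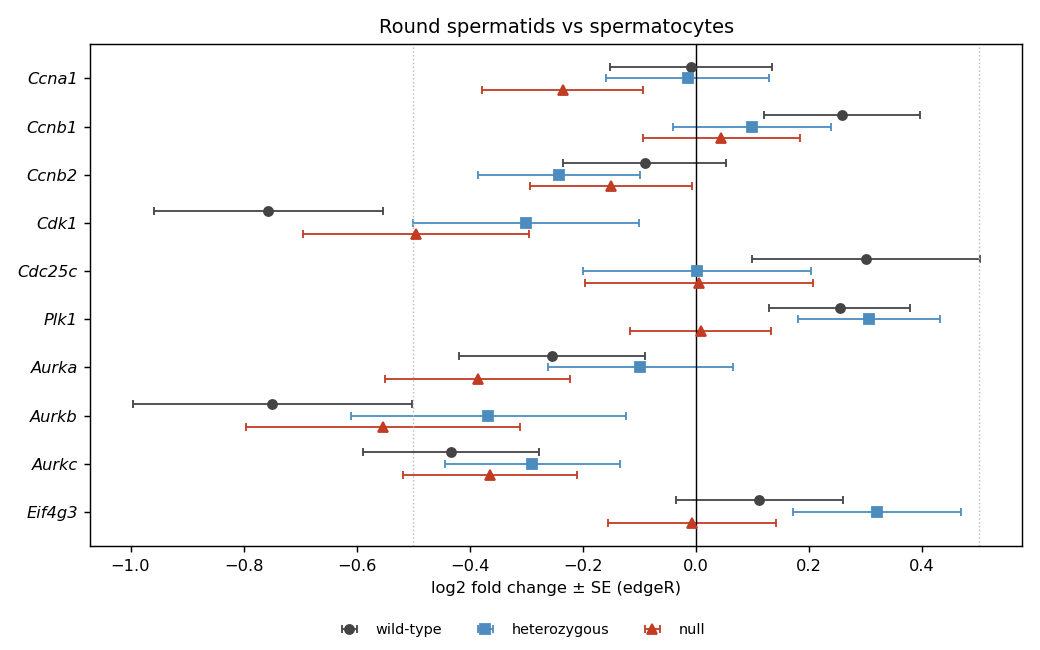
Log2 fold change of each member between round spermatids and spermatocytes within each genotype, from edgeR. Circles are wild-type, squares heterozygous and triangles null libraries, bars are standard errors, and dotted lines mark a log2 fold change of 0.5 in either direction. The wild-type points of Cdk1 and Aurkb, at -0.76 and -0.75, lie farthest to the left and are the only called values.

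The other genes of the pathway were read from 4 lists of known partners. Of the CDK1 regulators, which hold the inhibitory kinases, CDC25 paralogues, CKS subunits and the Greatwall branch, 13 of 15 were tested, Wee2 and Ccnb3 being too low. Of these 13, 7 were below 0 in null spermatocytes and 9 in null round spermatids (medians -0.15 and -0.17). The anaphase-promoting complex and spindle checkpoint list, which times the separation of chromosomes, had 11 of 13 genes below 0 in null spermatocytes (median -0.62) and 12 of 13 in null round spermatids (median -0.33). The partners of Aurora and Polo kinases had 7 of 9 and 6 of 9 genes below 0 (medians -0.50 and -0.34), and the eIF4F genes 5 of 6 and 1 of 6 (medians -0.16 and 0.05). The medians over all genes were -0.03 and 0.03, and edgeR called no gene of the 4 lists in either fraction. In null spermatocytes DESeq2 called 4 of 13 CDK1 regulators (1 of them higher), 4 of 13 checkpoint and anaphase-promoting complex genes, 1 of 9 Aurora and Polo partners and 2 of 6 eIF4F genes (1 of them higher), beside 15.2% of all genes. In null round spermatids it called 2 (1 of them higher), 2, 1 and 0 genes of these lists, beside 3.62% of all genes.

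The smallest p-values in null spermatocytes belonged to Bub3, a checkpoint protein at kinetochores (-0.74, SE 0.18, edgeR adjusted p = 0.0599), to Ensa, an inhibitor of the phosphatase that opposes CDK1 (-0.72, SE 0.19, adjusted p = 0.0608), and to Cdc20, an activator of the anaphase-promoting complex (-0.62, SE 0.17, adjusted p = 0.0616). Bub3 was at 54.9 to 79.0 CPM in wild-type and 33.3 to 47.1 CPM in null spermatocytes, without overlap, and Cdc20 at 168.5 to 230.8 and 108.1 to 162.6 CPM. Ensa was at 49.7 to 79.0 and 35.8 to 50.9 CPM, which overlapped. In null round spermatids they belonged to the checkpoint gene Mad1l1 (-0.997, SE 0.21, adjusted p = 0.0707), to Cdc20 (-0.65, SE 0.14, adjusted p = 0.0744) and to Pkmyt1, a kinase that inhibits CDK1 (-0.56, SE 0.14, adjusted p = 0.0854).

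The partners were also compared between the wild-type fractions. From spermatocytes to round spermatids edgeR called 1 CDK1 regulator higher and 3 lower, 6 of 13 checkpoint and anaphase-promoting complex genes lower, 4 of 9 Aurora and Polo partners lower and 2 of 6 eIF4F genes higher, where it called 24.2% of all genes. The 4 calls among 13 CDK1 regulators and the 2 among 6 eIF4F genes lie near that share. The largest called changes in these lists were those of Fbxo43, an inhibitor of the anaphase-promoting complex (from 40.7 ± 9.32 to 10.6 ± 2.37 CPM, log2 fold change -1.94, adjusted p = 0.000906), of Sgo2a, which protects centromeric cohesion (-1.88, adjusted p = 0.00103), and of Cks2, a subunit that binds CDK1 (-1.72, adjusted p = 0.00135).

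**Figure D5:**
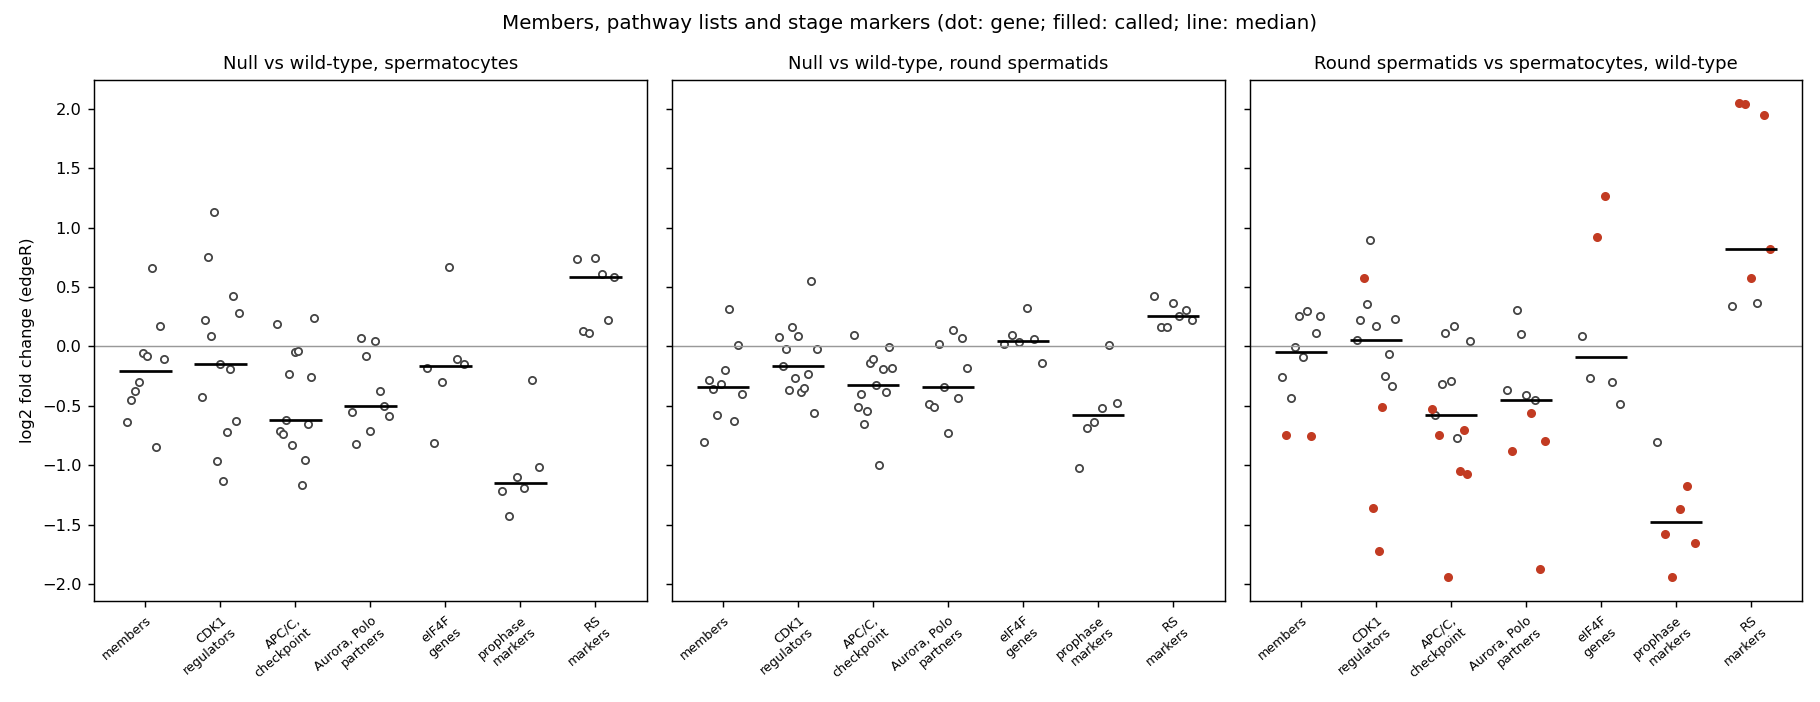
Log2 fold change (edgeR) of the members, of 4 lists of pathway partners and of the prophase and round spermatid (RS) markers, in null against wild-type spermatocytes, null against wild-type round spermatids, and wild-type round spermatids against spermatocytes. Each dot is a gene, filled where called, and the line is the median of the list. In the null panels no dot is filled, and in spermatocytes the prophase markers lie lowest, with a median of -1.15.

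Markers of the stages present in the fractions are given beside these results. The 6 prophase markers summed to 491.2 to 1317 CPM in wild-type, 344.2 to 592.9 CPM in heterozygous and 258.7 to 509.9 CPM in null spermatocytes. All 6 had log2 fold changes below 0 in the null (median -1.15, none called by edgeR, 5 by DESeq2), and all 6 in the heterozygotes (median -0.98, none called by edgeR, 3 by DESeq2). The 7 round spermatid markers were all above 0 (median 0.58), with sums of 1741 to 3976 CPM in the wild-type and 2208 to 5740 CPM in the null. Marker lists that the study drew up were read in the same way. All 98 tested genes of its early round spermatid list were above 0 in null spermatocytes (median 0.68, none called by edgeR, 34 by DESeq2), with sums of 6671 to 11510 CPM in the wild-type and 12040 to 13600 CPM in the null. In heterozygous spermatocytes all 98 were also above 0 (median 0.78, none called by edgeR, 32 by DESeq2), and in null round spermatids 97 of 98 (median 0.26, none called by edgeR, 1 by DESeq2). Of its pachytene list 87 of 91 tested genes were below 0 in null spermatocytes (median -0.92, none called by edgeR, 37 by DESeq2), with sums of 3445 to 8476 CPM in the wild-type and 2161 to 3859 CPM in the null. In heterozygous spermatocytes 87 of 91 were below 0 (median -0.77, none called by edgeR, 18 by DESeq2), and in null round spermatids 81 of 90 (median -0.33, none called by edgeR, 2 by DESeq2). The study also drew up, from single wild-type cells, a list of markers of diplotene to second division cells, and 5 of the 10 members are in it. Without these members, 86 of its 91 tested genes were below 0 in null spermatocytes (median -0.46, none called by edgeR, 23 by DESeq2) and 89 of 91 in null round spermatids (median -0.45, 1 called by edgeR, 23 by DESeq2). In heterozygous spermatocytes 88 of 91 were below 0 (median -0.41, none called by edgeR, 28 by DESeq2), and in heterozygous round spermatids 82 of 91 (median -0.25, none called by edgeR, 1 by DESeq2). Over all genes DESeq2 called 15.2% in null spermatocytes, 3.62% in null round spermatids, 6.16% in heterozygous spermatocytes and 0.0414% in heterozygous round spermatids, and edgeR called 0.0518% in null round spermatids. Its summed level was 11420 to 12960 CPM in wild-type against 7335 to 10560 CPM in null spermatocytes, and 8625 to 10010 CPM against 6788 to 7543 CPM in round spermatids. In bulk libraries fewer cells of a stage and less RNA per cell cannot be told apart, and the part of these markers in the values of Cdk1, Aurka, Ccna1 and the other members was not tested.

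Spermatogonia divide as well and use the same machinery. The 7 spermatogonia markers summed to 39.4 to 49.6 CPM in wild-type, 67.7 to 91.5 CPM in heterozygous and 47.3 to 77.7 CPM in null spermatocytes. In the heterozygotes 6 of 7 were above 0 (median 0.97, 1 called by edgeR beside 0.0257% of all genes, and 4 by DESeq2), and in the null 5 of 7 (median 0.71, none called by edgeR, 2 by DESeq2). The gene called by edgeR was Stra8, which is needed for entry into meiosis (2.08, edgeR adjusted p = 0.0107). Of the 96 tested genes in the spermatogonia list of the study, 89 were above 0 in heterozygous spermatocytes (median 0.56, none called by edgeR, 23 called higher by DESeq2) and 65 in null ones (median 0.19, none called by edgeR, 11 called higher by DESeq2 and 1 lower). The 5 proliferation markers, among them Mki67 and Top2a, summed to 309.9 to 459.2 CPM in wild-type, 305.6 to 316.1 CPM in heterozygous and 284.1 to 335.4 CPM in null spermatocytes. The 5 Leydig markers summed to 3.25 to 10.1 CPM in wild-type and 6.03 to 22.8 CPM in heterozygous spermatocytes, where all 5 had log2 fold changes above 0 (none called by edgeR, 2 by DESeq2). Of the macrophage markers, 2 of 3 tested were above 0 in null spermatocytes (median 1.13, none called by edgeR, 2 by DESeq2) and 5 of 6 in null round spermatids (median 1.04, none called by edgeR, 1 by DESeq2). Their sums were 2.96 to 4.67 CPM in wild-type and 4.05 to 9.45 CPM in null spermatocytes, and 9.23 to 12.7 CPM and 13.4 to 19.3 CPM in round spermatids. All 5 Sertoli markers were below 0 in null spermatocytes (median -0.73) and above 0 in null round spermatids (median 0.22), none called by either tool. The part of these cells in the values of the members was not tested either.

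The genes with the most similar profile were found for 4 members by Pearson correlation of log2 CPM over the 21 libraries, among 15072 protein-coding genes. The closest to Ccna1 were Rfx8 (r = 0.96), Vrk3 (0.93) and Dcaf7 (0.93). Cdk1 was followed most closely by Nubp2 (0.97), Pik3ip1 (0.97) and Coq9 (0.96), Aurkc by Tmbim7 (0.95), H2afz (0.95) and Ttc30a2 (0.94), and Eif4g3 by Atxn2 (0.95), C530008M17Rik (0.94) and Catsperg1 (0.92). These coefficients describe libraries that share their genotype, fraction and purity, and with the mean of each fraction removed they were between 0.90 and 0.96 for the same genes.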

How the data were processed

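The authors deposited raw counts per gene for 24 libraries. Per the paper's methods, directional poly(A) libraries were sequenced as paired reads, trimmed with TrimGalore and mapped and counted per gene with STAR. The build named in the submitters' processing notes is mm10, while the strand column and annotation release are not given in the sources used here. STAR counts uniquely placed reads only, so genes with near-identical copies lose reads. Identifiers and coordinates were read from GENCODE M21, in which all 55536 were found.

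Each fraction was fitted on its own over its 3 genotypes, and both together for comparisons of fractions. Genes with 10 or more counts in 3 or more libraries were tested with edgeR 4.0.16 (R 4.3.3, quasi-likelihood, TMM scaling), and called at a Benjamini-Hochberg adjusted p under 0.05 with a log2 fold change beyond 0.5 in either direction. DESeq2 1.42.0, which the study used, was an alternative. Fold changes are fitted values, and CPM use TMM factors over both fractions. The SE of an edgeR value was derived as its absolute log2 fold change divided by the square root of the F statistic. P-values measure the spread between pools of mice. The edgeR and DESeq2 routines were tested on simulated counts with the same spread for every gene, a simpler setting than these libraries. All members are named, and of the 4 partner lists the genes with the 3 smallest p in each null comparison and the 3 largest called changes between wild-type fractions. The nearest profiles were sought for 4 members. Members and lists were chosen with earlier results of these data known. No 2 libraries of a group were repeat deposits.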

Additional observations from a re-analysis of the deposited data

How the results depend on the processing

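No member was called by edgeR in null against wild-type spermatocytes, and this count moved to 3 with DESeq2, 3 without the filter on low counts and 2 when only these groups were fitted, while the genes called over the whole table moved from 8 to 2953, 2623 and 1303. In null round spermatids it moved from 0 to 3, 2 and 1 under the same alternatives (all genes: from 10 to 699, 238 and 10), and in heterozygous spermatocytes from 0 to 2 with DESeq2 and 2 without the filter (all genes: from 5 to 1199 and 1481). Between wild-type fractions the count moved from 2 to 0 with the outlier libraries added back (all genes: from 4934 to 0). The cause was not tested. Leaving out single libraries gave 0 to 3 calls in null spermatocytes, 0 to 2 in heterozygous spermatocytes, 0 to 2 between wild-type fractions and 0 to 4 between null fractions. It gave 0 in every other comparison.

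The replicate numbers were not used to pair the libraries, since same-numbered libraries correlated above 0.1 in 0 of 10 pairs in round spermatids and 4 of 7 in spermatocytes. So few pairs cannot show whether same-numbered spermatocyte libraries share a preparation. A block on the replicate number gave 2 calls in null spermatocytes, Cdk1 at -1.06 (edgeR adjusted p = 0.0389) and Aurka at -0.84 (edgeR adjusted p = 0.0493), in a fit that called 687 of all genes against 8. Libraries of the 2 fractions with consecutive library numbers, which the labels do not say share a preparation, correlated above 0.1 in 8 of 9 pairs (-0.14 to 0.31). Since not every pair did, the fractions were compared without pairing. A block on these numbers kept the wild-type calls of Cdk1 (-0.65, edgeR adjusted p = 0.0224) and Aurkb (-0.69, edgeR adjusted p = 0.0260) and changed no count by more than 1.5 times. Directions turned only for members near 0. Ccna1 between wild-type fractions came to 0.0272 without the filter and to 0.059 and 0.0099 with the blocks on consecutive and replicate numbers (-0.074 to 0.0583 without single libraries). Ccnb1 in heterozygous spermatocytes came to 0.1239 with library number as a covariate (-0.2078 to 0.0264 without single libraries), and in null spermatocytes it spread from -0.0971 to 0.0572 without single libraries, turning without wild-type replicate 5. Ccnb2 in heterozygous spermatocytes came to -0.091 with the replicate block (-0.1928 to 0.1757 without single libraries). Eif4g3 in null round spermatids came to -0.1061 with the outliers added back, -0.07 with library number and -0.0585 with the replicate block (-0.063 to 0.1126 without single libraries). Without single libraries Eif4g3 in heterozygous spermatocytes spread from -0.032 to 0.2084 and Cdc25c in heterozygous round spermatids from -0.0865 to 0.2413. Some other values kept their direction but changed in size. Ccna1 in null spermatocytes came to -0.4895 with the replicate block and -0.4584 with library number, from -0.3012. Without single libraries Aurkb spread from -0.626 to -0.2457 in null and from -0.9821 to -0.4166 in heterozygous spermatocytes. In null round spermatids it spread from -0.3999 to -0.1381, and Cdc25c from 0.1589 to 0.457. Between wild-type fractions Cdc25c spread from 0.1554 to 0.4591. Of 459 values of single genes under alternatives that leave out no library, 414 kept their direction and side of the threshold, 32 passed it, 5 no longer did and 8 turned. Aurkb, at 7.56 CPM and above, had the fewest counts, and the 3 or 4 pools of a group limited every comparison.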
